A study of Homo sapiens with 42 samples.

Results

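The ATP-binding cassette (ABC) transporter genes are described here in HAP1 cells, a human near-haploid adherent line derived from a chronic myeloid leukaemia line. All rows of the deposited table whose symbol was ABC, a subfamily letter from A to G and a number were taken as members, without pseudogenes or antisense genes, which gave 39 of 20515 named entries. RNA was measured in 42 libraries from cells of the genotypes neil1, neil2 and neil3, named for the DNA glycosylases NEIL1, NEIL2 and NEIL3, of the genotype neil123, named for all of them together, and of the wild type (wt). Each genotype was given 200 µM BSO for 48 h, begun after 4 h, or media alone. Per treatment there were 3 libraries of neil1, 3 of neil2, 4 of neil3, 4 of neil123 and 7 of wt. Replicate names come in a form without a final letter (18 libraries: neil1, neil2 and 3 wt per treatment) and a form ending in A or B (24 libraries: neil3, neil123 and 4 wt per treatment). Each knockout was compared with the wt libraries named in its own form, since both forms of wt differed widely. In knockout names the number before any point or final letter was read as a cell line, so each knockout rests on 2 lines. In wt names the part after a point was kept, and only a final letter was dropped, which gave 3 wt lines. The labels do not state either reading, and all results by line rest on this unequal treatment of knockouts and wt. The labels call many of the libraries biological replicates but do not say whether libraries of 1 line are separate cultures. P-values therefore measure the spread between these libraries, which may in part be technical.

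ABC proteins bind and split ATP through paired nucleotide-binding domains, and most use that energy to move a substrate across a membrane. Subfamily A handles lipids and sterols. Subfamily B holds the multidrug exporter ABCB1 (P-glycoprotein) and smaller transporters of mitochondria and lysosomes that work as pairs. Subfamily C holds the multidrug resistance proteins, of which ABCC1 exports glutathione conjugates and glutathione itself, ABCC4 and ABCC5 export cyclic nucleotides, nucleotide analogues and other organic anions, and ABCC2 is the conjugate exporter of the apical membrane. Subfamily D works in peroxisomes and lysosomes, and subfamily G holds the drug exporter ABCG2 and sterol transporters. ABCE1 and the F subfamily transport nothing and act in translation. BSO (buthionine sulfoximine) blocks the first step in the synthesis of glutathione, which is a substrate or co-substrate of several exporters of subfamily C.

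The libraries held 27150434 to 30945972 reads, and the ABC genes took 0.117% to 0.135% of them. The wt libraries with and without a final letter differed at 14 of 28 ABC genes tested in media, 9 higher and 5 lower in the lettered set, against 39.1% of all 14331 genes tested (limma, Benjamini-Hochberg adjusted p under 0.05, the threshold for every call here). HAP1 cells carried RNA of the adherent mesenchymal markers in all 42 libraries, with VIM at 11763 to 22134, whereas PTPRC, GATA1 and ITGAM, defining markers of blood cells, were at 0 in 23, 25 and 24 libraries and never above 2.92. Of the other blood markers in the table, CD33 reached 8.91 and CD34 ranged from 1.02 to 716. As a check of the labels, NEIL2 averaged 311 ± 14.7 in neil2 and 554 ± 63.2 in wt in media (SD, n = 3 each), and 224 ± 12.4 in neil123 and 395 ± 27.7 in wt (SD, n = 4 each). Of the 3 NEIL genes together, 1 was called lower and 1 higher in neil2 in media, and likewise with BSO. NEIL3 averaged 424 ± 39.6 in neil123, 520 ± 106 in neil3 and 640 ± 35.2 in wt (SD, n = 4 each), and passed the test in neil123 but not in neil3. NEIL1 averaged 386 ± 116 in neil1 and 355 ± 46.6 in wt (SD, n = 3 each), and 987 ± 109 in neil123 and 852 ± 92.2 in wt (SD, n = 4 each), so that its RNA level served as no check of the loss of this gene in either genotype. Knockout edits need not lower a gene's RNA.

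Levels are the authors' normalized read counts, and a difference is given as log2 ± its standard error on the log2(value + 1) scale, which understates changes of low genes. Compared per kilobase (kb) of exons in the 7 wt media libraries, the members most abundant in HAP1 cells were ABCF1 at 1255 normalized read counts per kb and ABCE1 at 952, both factors of translation. Other abundant members were ABCC1 at 502, ABCB10 at 413 and ABCA3 at 383. ABCB10 sits in the inner membrane of mitochondria, where it supports haem synthesis. Among the named exporters, ABCC5 stood at 121 per kb, ABCC4 at 116 and ABCB1 at 63.9, whereas ABCG2 stood at 4.28 and ABCC2 at 3.41. Neighbours such as ABCC5 and ABCC4 changed places between both wt sets, with 141 and 101 per kb in the lettered and 93.6 and 136 per kb in the unlettered set.

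**Figure D1:**
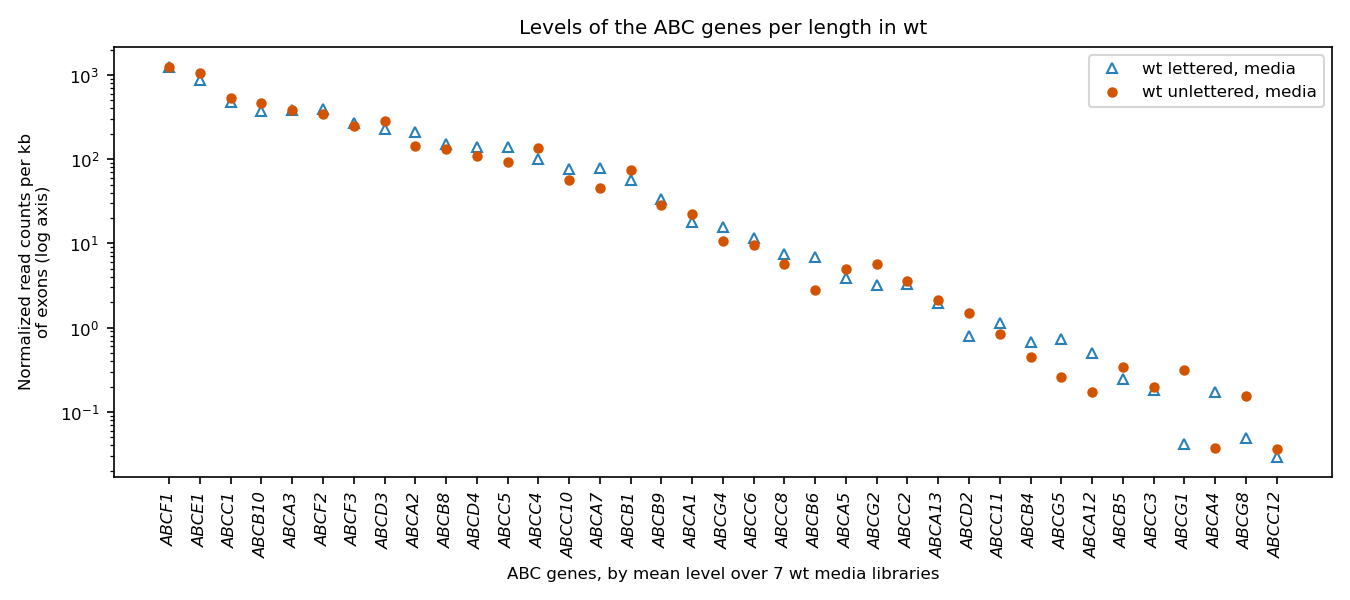
Mean normalized read counts per kb of exons (log axis) of 37 ABC genes in wt cells in media, ordered by the mean over 7 libraries; triangles are the lettered and filled points the unlettered wt libraries. The levels span from 1255 per kb for ABCF1 to 0.0321 per kb for ABCC12, and ABCF1 and ABCE1 lead in both wt sets.

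Of the 39 members, 28 had a mean of at least 10 over all libraries and were tested: 6 of 8 in subfamily A, 6 of 8 in B, 7 of 10 in C, 3 of 4 in D, ABCE1, all 3 of F and 2 of 5 in G. The 11 below that level were ABCA4, ABCA12, ABCB4, ABCB5, ABCC3, ABCC11, ABCC12, ABCD2, ABCG1, ABCG5 and ABCG8. Of these ABCC11 came nearest, with a mean of 7.89. ABCA4, the retinoid transporter of photoreceptors, was at 0 in 30 of 42 libraries, ABCC12 in 23 and ABCG8, which pairs with ABCG5 to export sterols, in 21. A member that passed through a high level in 1 group had a better chance to be tested, so counts among the 28 do not speak for all 39.

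The bases before the start sites of 3 genes are shown because the results turn on them: ABCB1 had the largest called differences between knockouts and wt, ABCB6 rose with BSO in 3 genotypes, and ABCC4 holds the same motif as ABCB6 without a rise with BSO past the test. Each line gives the 250 bases upstream of a RefSeq start in GRCh38.p14, 5′ to 3′ on the strand of the gene, with ABCB6 at chr2:219218959-219219208, ABCC4 at chr13:95301452-95301701 and the downstream of both ABCB1 starts at chr7:87600885-87601134, all on the minus strand. Capitals mark the antioxidant response element core TGACNNNGC, read on either strand.
ABCB6: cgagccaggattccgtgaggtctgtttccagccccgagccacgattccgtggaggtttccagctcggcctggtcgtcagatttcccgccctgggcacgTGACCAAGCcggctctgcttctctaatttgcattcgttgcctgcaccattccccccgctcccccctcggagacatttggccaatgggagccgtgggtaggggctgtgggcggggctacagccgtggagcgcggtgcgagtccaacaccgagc
ABCC4: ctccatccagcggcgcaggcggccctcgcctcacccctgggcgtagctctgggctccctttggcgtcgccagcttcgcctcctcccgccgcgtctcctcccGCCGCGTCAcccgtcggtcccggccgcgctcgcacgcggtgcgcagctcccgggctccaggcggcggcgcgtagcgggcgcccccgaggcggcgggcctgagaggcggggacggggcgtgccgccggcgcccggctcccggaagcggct
ABCB1: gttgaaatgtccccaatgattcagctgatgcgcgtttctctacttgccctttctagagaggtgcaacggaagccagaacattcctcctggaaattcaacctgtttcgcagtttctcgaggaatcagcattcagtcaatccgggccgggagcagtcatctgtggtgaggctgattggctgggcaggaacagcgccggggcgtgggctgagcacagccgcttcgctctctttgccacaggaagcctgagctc
RefSeq promoters were found for 30 members (47 starts). The core was in 9 of these 47 windows, 19.1%, against 10.9% of the windows of all 35116 starts: those of ABCA2, ABCA3, ABCB6, ABCB9, ABCC4, ABCC10, ABCD4, ABCF1 and ABCG4. The second motif searched on both strands, the ATF4 and C/EBP composite core TGATGNAA, which shares no fixed letters with the first beyond its opening TGA, was in 1 member window, that of ABCA13, and in 3.14% of all windows. A match is a description of letters and not of a bound site.

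ABCB1 was far lower in both lines of neil123 and in 1 of the 2 lines of neil2 than in wt, with and without BSO. ABCB1 encodes P-glycoprotein, which pumps many hydrophobic drugs out of cells. It lies at chr7:87503633-87713323 (GRCh38, GENCODE v29, minus strand). In neil123 the 4 media libraries 1A, 1B, 2A and 2B held 13.9, 28.0, 7.89 and 0 normalized read counts, and the 4 BSO libraries 15.02, 21.9, 0.972 and 5.03. The 4 lettered wt libraries 1.1A, 1.1B, 1.3A and 1.3B held 265, 453, 240 and 355 in media and 240, 416, 218 and 356 with BSO. Every neil123 library was thus below every wt library. The log2 difference of neil123 from wt was -5.34 ± 0.90 in media (limma, adjusted p = 0.000164) and -5.20 ± 0.90 with BSO (adjusted p = 0.00024). With 1 mean per line the direction stayed but both calls were lost (adjusted p = 0.0666 in media and 0.0709 with BSO).

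In neil2 the difference rested on line 11. Its 2 libraries held 22.3 and 7.81 in media and 24.2 and 4.94 with BSO, while the library of line 12 held 325 and 328. The unlettered wt libraries 1.1, 1.3 and p1 held 440, 346 and 499.6 in media and 353, 282 and 453 with BSO. Line 11 was far below all wt libraries, and line 12 lay within the wt range with BSO and just below it in media. Over all 3 libraries the log2 difference was -3.39 ± 1.04 in media (limma, adjusted p = 0.0314) and -3.28 ± 1.04 with BSO (adjusted p = 0.0289). In media line 11 alone gave -4.89 and line 12 alone -0.38. Leaving out line 11 leaves 1 neil2 library per treatment, too few to decide a call. The calls in media and with BSO were each lost when any 1 of the 6 libraries compared but that of line 12 was left out. They were also lost with edgeR, with 1 mean per line and with only the compared groups in the fit.

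In the other genotypes ABCB1 did not pass the test. Its standard errors come from 1 estimate of spread shared by all 12 groups. For ABCB1 that estimate takes in the gap between the lines of neil2 and the scatter within neil123. The errors and p-values below therefore do not measure the spread of neil3, neil1 or wt alone. The fit of only the compared groups gave no call for neil3 or neil1 either. The neil3 libraries held 154, 168, 217 and 250 in media, against 240 to 453 in wt, so that the sets overlapped in 1 library (log2 -0.71 ± 0.90, adjusted p = 1). The neil1 libraries held 288, 325 and 181 in media, all below the 346 to 499.6 of wt (log2 -0.72 ± 1.04, adjusted p = 0.822). By mean level in media within the unlettered set, line 11 of neil2 lay lowest, neil1 and then line 12 of neil2 followed, and wt lay highest. Within the lettered set neil123 lay lowest, neil3 followed and wt lay highest.

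**Figure D2:**
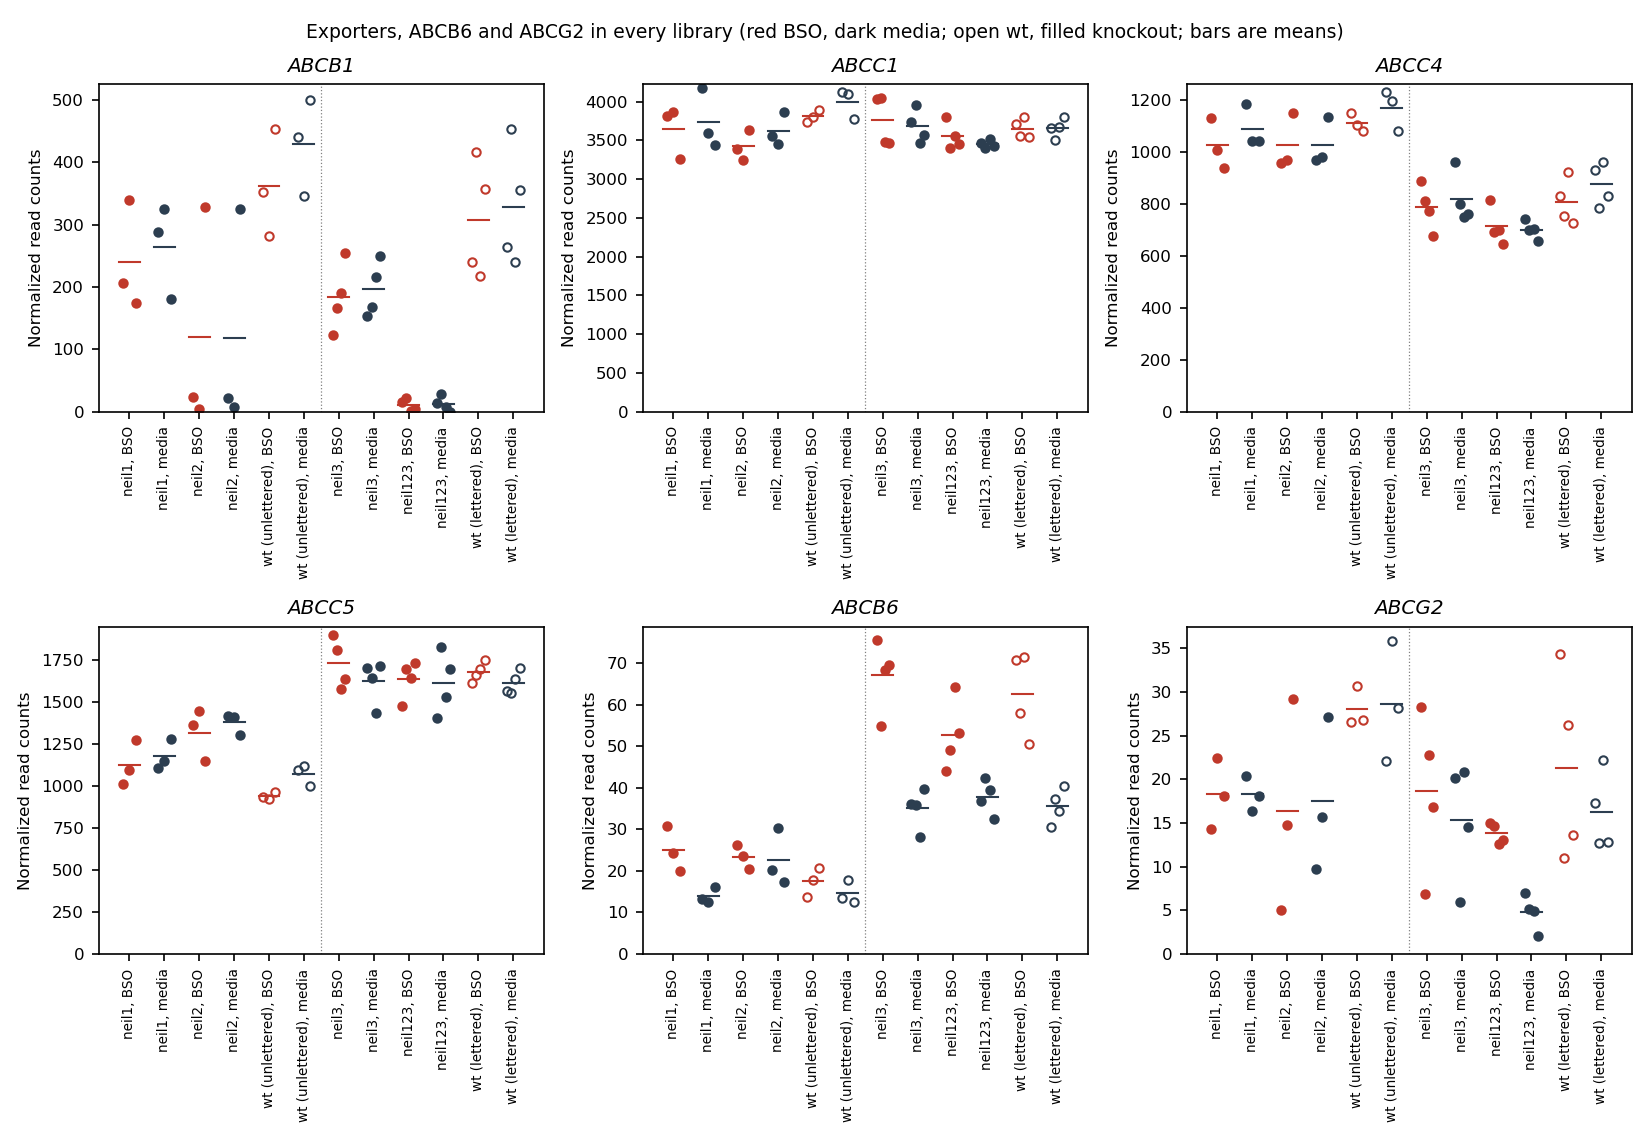
Normalized read counts of ABCB1, ABCC1, ABCC4, ABCC5, ABCB6 and ABCG2 in every library, by genotype and treatment (red BSO, dark media; filled knockout, open wt; bars are group means); the dotted line parts the unlettered from the lettered libraries. ABCB1 lies at 0 to 28.0 in neil123 media libraries and at 240 to 453 in wt, ABCC1 lies between 3244 and 4174 everywhere, and ABCB6 is higher with BSO in most groups.

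The genes that flank ABCB1 did not all move with it. They were chosen after the values of ABCB1 were seen, as the tested genes whose start lies within 500 kb, with ABCB4 added, which gave 7 besides ABCB1. Distances were taken from the upstream end of the ABCB1 span, chr7:87713323, and not from the downstream start whose bases are shown above. RUNDC3B lies on the opposite strand and overlaps ABCB1, and the strand setting of the counting is not given, so their reads cannot be told apart in full. RUNDC3B averaged 21.0 in neil123 and 98.6 in wt in media (limma, adjusted p = 0.000211), and its log2 difference in line 11 of neil2 was -2.19, against -0.08 in line 12. CROT, a peroxisomal carnitine acyltransferase further along, averaged 0.501 in neil123 and 81.2 in wt (limma, adjusted p = 4.35e-11). In line 11 of neil2 CROT gave 0.14, and in line 13 of neil1, where ABCB1 gave -0.80, it gave -2.36. ADAM22, a cell adhesion gene on the other side of ABCB1, averaged 493 in neil2 and 661 in wt (limma, adjusted p = 0.0123), and 373 in neil123 and 513 in wt (adjusted p = 0.00237), in media. Its log2 difference was -0.56 in line 11 and -0.18 in line 12 of neil2, and -0.55 and -0.37 in the lines of neil123. ADAM22 was also lower in line 12 (-0.54) and line 13 (-0.19) of neil1 and in the lines of neil3 (-0.21 and -0.17), in media. RUNDC3B gave -0.54 and -0.36 in these lines of neil1 and -0.08 and -0.18 in those of neil3. SLC25A40, DBF4 and TMEM243 differed from wt by -0.13 to 0.13 in every line in media. ABCB4, the phosphatidylcholine floppase next to ABCB1, was too low to test: it had 21.3 in media and 22.4 with BSO in line 12 of neil2, against 2.88 to 6.94 in unlettered wt, and 0 reads in all 4 BSO libraries of neil123, a count that allows up to 3 reads each.

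**Figure D3:**
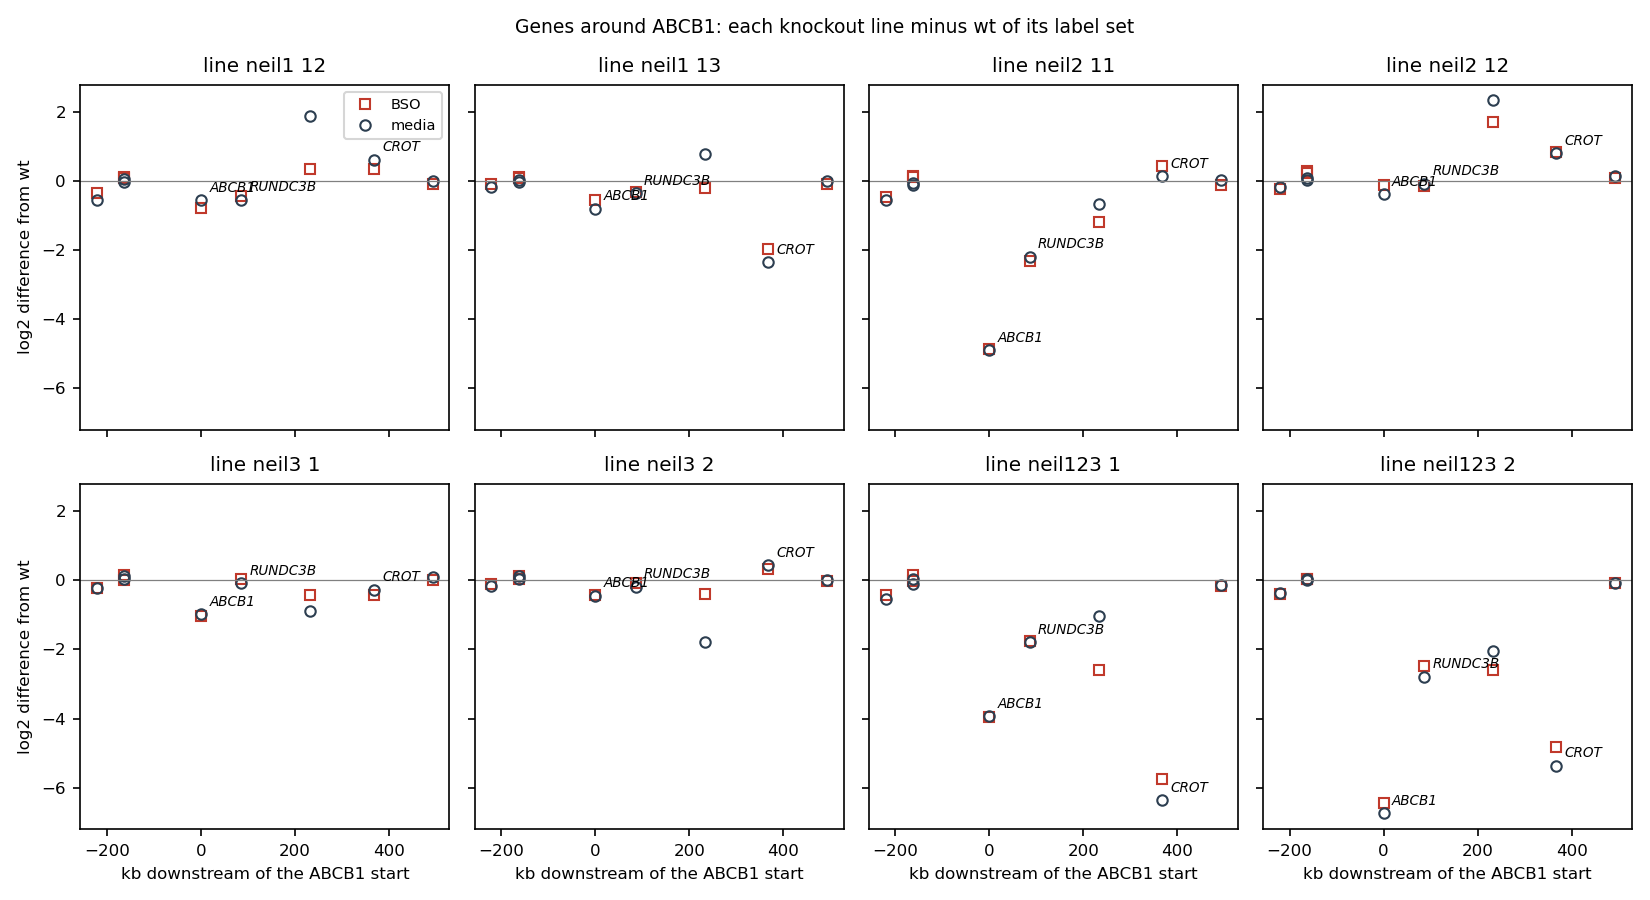
Log2 difference of each knockout line from the wt mean of its own name form for 8 genes, by distance of the gene start in kb downstream of the ABCB1 start (squares BSO, circles media). The ABCB1 start is here the upstream end of its GENCODE span. In line 11 of neil2 and both lines of neil123 ABCB1 and RUNDC3B lie far below 0, and CROT does so in neil123 and, less, in line 13 of neil1.

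ABCC1, the main exporter of glutathione conjugates and of oxidized glutathione, passed no test in any comparison of knockouts or treatments. Its lowest value was 3244 (neil2 with BSO) and its highest 4174 (neil1 in media). In media it averaged 3455 ± 53.6 in neil123, 3685 ± 216 in neil3 and 3661 ± 122 in lettered wt (SD, n = 4 each), and 3734 ± 389 in neil1, 3622 ± 213 in neil2 and 3999 ± 192 in unlettered wt (SD, n = 3 each). The 4 differences from wt in media ran from -0.14 to 0.01 and those with BSO from -0.16 to 0.04, with standard errors of 0.06 to 0.07. With BSO, ABCC1 was higher in 11 and lower in 10 of the 21 pairs of libraries that share a replicate name, with differences from -0.14 to 0.13.

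ABCC4, which exports cyclic nucleotides, prostaglandins and nucleotide analogues, was lower in neil123 than in wt in media. The neil123 libraries held 744, 701, 705 and 657 and the wt libraries 931, 783, 960 and 830, with no overlap (log2 -0.32 ± 0.09, limma, adjusted p = 0.0309). With BSO the sets overlapped, at 816, 694, 699 and 646 in neil123 and 830, 752, 924 and 728 in wt (log2 -0.18 ± 0.09, adjusted p = 0.253). The media call was lost when either line of neil123 was left out, with line as a random block, with 1 mean per line, and when any 1 of 5 of the 8 libraries was left out (neil123 1B, 2A or 2B, wt 1.1A or 1.3A). Over the libraries and lines left out the log2 difference stayed between -0.37 and -0.27. The other knockouts differed from wt by -0.19 to -0.10 in media and passed no test.

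ABCC5, an exporter of cyclic nucleotides and nucleotide analogues, was higher in neil2 than in wt under both treatments. In media the neil2 libraries, 2 of line 11 and then line 12, held 1418, 1412 and 1306, against 1096, 1119 and 997 in wt (log2 0.37 ± 0.09, limma, adjusted p = 0.00939). With BSO they held 1361, 1445 and 1149, against 934, 925 and 966 (log2 0.48 ± 0.09, adjusted p = 0.000901). All neil2 libraries were above all wt libraries, and both lines were, by 0.40 in line 11 and 0.29 in line 12 in media. Without line 11, 1 neil2 library per treatment remained, too few to decide a call, at 0.29 above wt in media and 0.29 with BSO. In media the call was lost in the fit of only the compared groups and without the library of line 11 at 1412 (adjusted p = 0.0578). In media the difference was 0.14 ± 0.09 in neil1, 0.01 ± 0.08 in neil3 and -0.01 ± 0.08 in neil123. With BSO it was 0.25 in neil1, 0.04 in neil3 and -0.04 in neil123. None of these passed the test, though the neil1 libraries with BSO, at 1013, 1096 and 1275, were all above wt. Both wt sets differed more than any of these: ABCC5 was 0.59 ± 0.09 higher in the lettered set in media (adjusted p = 1.11e-06). The antisense gene ABCC5-AS1 overlaps it.

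Over all members, neil2 had the most calls. In media 5 of 28 passed the test, 17.9% against 11% of all genes tested, with 2 members higher (4.74% of all genes) and 3 lower (6.22%). With BSO 6 of 28 passed, 21.4% against 15.8%, with 2 higher (7.38% of all genes) and 4 lower (8.43%). The median log2 difference of the 28 was 0.03 in media, against 0.02 over all genes. The 5 called in media were ABCC5, ABCB1, ABCG4, ABCC8 and ABCA3, and all 5 were called in the same direction with BSO. Both comparisons use different libraries of the same lines.

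ABCG4, a sterol exporter, held 136, 171 and 89.9 in the neil2 libraries in media, again with line 12 last, against 58.5, 80.9 and 59.3 in wt (log2 0.95 ± 0.26, limma, adjusted p = 0.0151). With BSO it held 118, 146 and 72.1, against 33.4, 76.3 and 56.5 (1.02 ± 0.26, adjusted p = 0.00735). Line 12 lay nearest to wt under both treatments, and below the highest wt library with BSO. ABCG4 was also above all wt libraries in media in neil123, at 144, 217, 136 and 159 against 105, 110, 84.0 and 95.5 (log2 0.71). The same held in neil1 in media, at 91.7, 84.8 and 113 (log2 0.54). Neither passed the test, and in neil3 the sets overlapped. ABCC8, the sulfonylurea receptor that regulates a potassium channel, held 20.3, 21.5 and 52.2 in neil2 in media, against 64.2, 87.5 and 62.2 in wt (log2 -1.28 ± 0.37, adjusted p = 0.0213). The difference was -1.71 in line 11 and -0.43 in line 12.

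ABCA3, which loads phospholipids into lysosome-related organelles, held 1977, 1506 and 2597 in neil2 in media, against 3212, 2772 and 3089 in wt (log2 -0.61 ± 0.16, limma, adjusted p = 0.0134). Here too the sets did not overlap and line 12 lay nearest to wt. ABCA13, a very large lipid transporter, was called with BSO alone. It held 19.1, 15.8 and 24.4 in neil2 with BSO, against 39.3, 41.6 and 48.5 in wt (log2 -1.10 ± 0.34, adjusted p = 0.0242), and 32.0, 21.5 and 26.1 in media, against 47.0, 34.8 and 39.9. The test of whether this difference from wt changed with BSO gave no call (-0.50 ± 0.48, adjusted p = 0.784). In neil123 ABCA13 went the other way in media, without passing the test (log2 0.94). It held 98.6, 90.1, 50.3 and 61.0 there, against 28.5, 40.2, 35.4 and 47.3 in lettered wt, and with BSO these sets overlapped. Leaving out line 11 leaves 1 neil2 library per treatment, too few to decide a call. Line 12 alone differed from wt in media by 0.45 for ABCG4, -0.43 for ABCC8 and -0.22 for ABCA3, and with BSO by -0.79 for ABCA13. In media the calls of ABCG4, ABCC8 and ABCA3 were each lost without wt 1.1, without 1 or either library of line 11, with 1 mean per line and with only the compared groups in the fit, and that of ABCC8 also without wt 1.3. With BSO, ABCA3 kept its call without any 1 library, ABCG4 lost it without 2 of 6, ABCA13 without 4 and ABCC8 without 5. ABCG4, ABCC8 and ABCA13 also lost it with 1 mean per line, ABCG4 and ABCC8 with only the compared groups, and ABCC8 with edgeR.

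In neil123, 4 of 28 members passed the test in media, 14.3% against 5.34% of all genes tested, with 1 higher (2.95% of all genes) and 3 lower (2.39%). With BSO 2 passed, 7.14% against 8.09%, with 1 higher (4.52%) and 1 lower (3.57%). ABCB1 and ABCC4 are given above. ABCA1, which loads cholesterol and phospholipids onto apolipoprotein A-I, was higher. Its neil123 libraries held 336, 306, 432 and 356 in media, against 176, 201, 249 and 191 in wt (log2 0.81 ± 0.22, limma, adjusted p = 0.022). With BSO they held 274, 212, 327 and 332, against 147, 163, 191 and 165 (0.76 ± 0.22, adjusted p = 0.026). No neil123 library fell within the wt range. The media call was lost without any 1 of neil123 2A and 2B and wt 1.1A, 1.1B and 1.3B, without line 2 or with 1 mean per line, at log2 differences of 0.66 and more. The BSO call was lost without any 1 of 6 of the 8 BSO libraries (all but neil123 1B and wt 1.3A), without line 2 and with 1 mean per line. In neil3, which shares the wt libraries with neil123, ABCA1 held 264, 264, 314 and 315 in media, also above wt, but missed the threshold (0.50 ± 0.22, adjusted p = 0.766).

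ABCG2, the breast cancer resistance protein that exports drugs, urate and porphyrins, was lower in neil123 in media. The libraries held 6.97, 5.18, 4.93 and 2.03, against 17.3, 12.7, 22.3 and 12.8 in wt, so that no library overlapped (log2 -1.63 ± 0.42, limma, adjusted p = 0.0137). With BSO neil123 held 15.02, 14.6, 12.6 and 13.07, against 34.4, 10.99, 26.2 and 13.6, and the sets overlapped (-0.45 ± 0.42, adjusted p = 0.592). These wt values parted by final letter, with 34.4 and 26.2 under A and 10.99 and 13.6 under B. With a term for the final letter in the fit, the media call of neil123 held. These are low read counts in every library. The media call was lost without library 2B (adjusted p = 0.082), without line 2 or with 1 mean per line.

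Neither neil1 nor neil3 had a member past the threshold, in media (0.3% of all genes for neil1, 0.44% for neil3) or with BSO (0.202% and 0.405%). At an unadjusted p under 0.05, 1 of 28 passed in neil1 and 1 in neil3 in media, and 2 and 1 with BSO. The edgeR test also called 0 in these 4 comparisons. The log2 differences of the 28 members ran from -0.73 to 0.54 in neil1 in media.

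**Figure D4:**
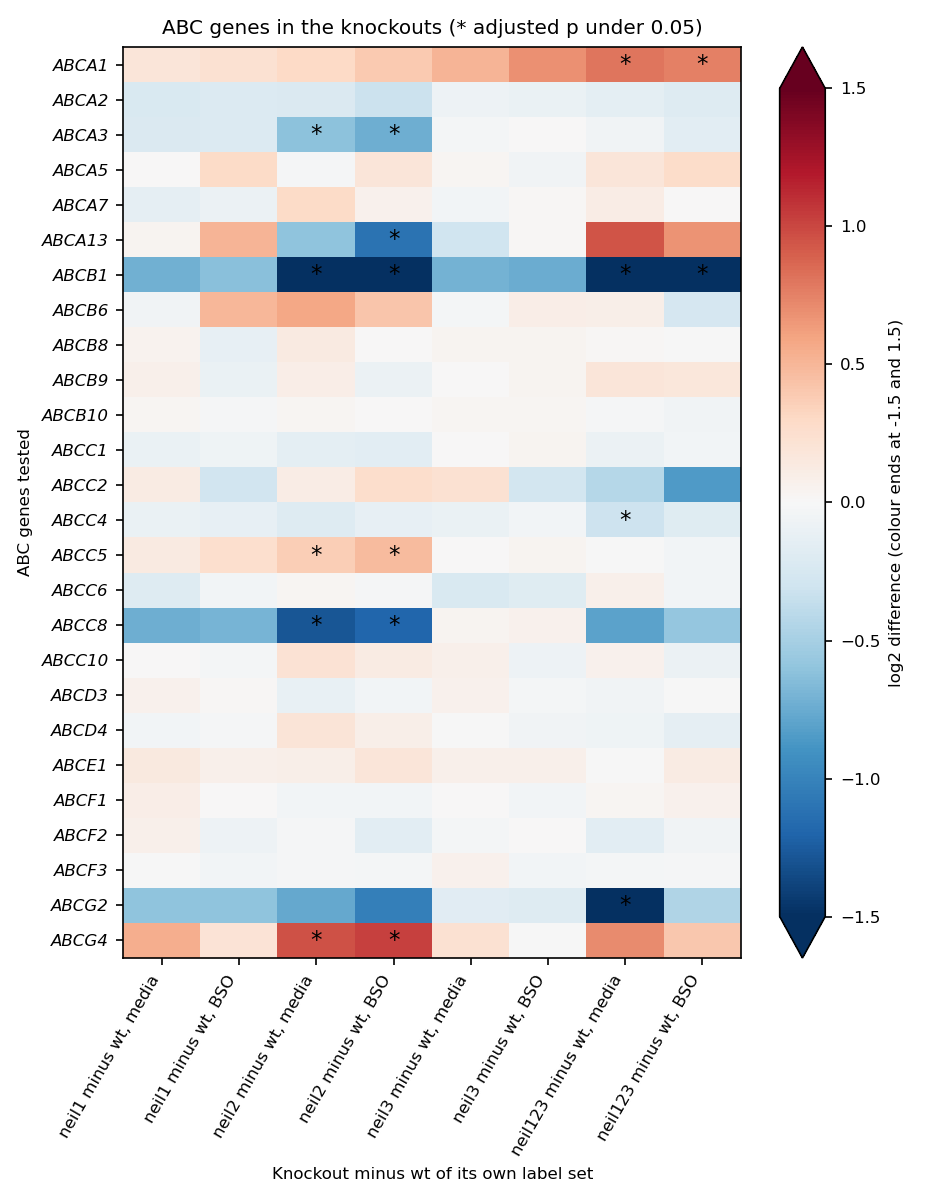
Log2 difference of each knockout from the wt libraries of its own name form for 26 of the 28 ABC genes tested (rows) in 8 comparisons (columns); colours end at -1.5 and 1.5, and stars mark an adjusted p under 0.05. The stars stand in neil2 (5 in media, 6 with BSO) and neil123 (4 and 2), with ABCB1 starred in all 4 of these columns and no star in neil1 or neil3.

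Other genes moved alongside the members in the same knockouts, and their part in these results was not tested. GSTM2, a glutathione transferase that makes substrates for the C subfamily, was higher in neil2 (log2 2.11 ± 0.34, limma, adjusted p = 0.000216) and in neil123 (1.76 ± 0.30, adjusted p = 0.000162) in media. Of 12 glutathione transferase genes tested, 2 were higher and 0 lower in each. Over all genes in media, 4.74% were higher and 6.22% lower in neil2, and 2.95% and 2.39% in neil123. Of 13 nuclear receptors and factors known to control ABC genes, 0 were higher and 2 lower in neil2 and in neil123: PPARG (-0.99 and -0.79) and AHR (-1.04 and -0.97), in media. Among 10 other drug efflux genes tested, the organic cation exporter SLC47A1 was lower (-0.68 ± 0.13, adjusted p = 0.000751) and SLC22A18 higher (0.55 ± 0.15, adjusted p = 0.0168) in neil123, and none was called in neil2 in media. None of the 10 sterol genes tested was called in neil2 in media, and SOAT1 was lower in neil123 (-0.37 ± 0.11, adjusted p = 0.0288). Among the iron-sulfur and haem genes CIAPIN1 was higher (0.25), and among the translation genes GCN1 was lower (-0.20), both in neil2 in media, and the peroxisome list gave no call there or in neil123. The superfamily members TAP1, TAP2 and CFTR, which carry other symbols, gave no call in media, and TAP1, a subunit of the peptide transporter of antigen presentation, was lower in neil2 with BSO (-0.33 ± 0.11, adjusted p = 0.0396).

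Epithelial markers also differed in these knockouts, and cycling markers in neil2. EPCAM was lower in neil2 (log2 -1.96 ± 0.55, limma, adjusted p = 0.0184) and neil123 (-2.12 ± 0.47, adjusted p = 0.0037) in media, and KRT8 was higher in neil2 (2.16 ± 0.68, adjusted p = 0.0358). The summed level of the 4 epithelial markers in the table was 4966 to 10232 in neil2 and 2710 to 3362 in unlettered wt, and 1895 to 3665 in neil123 and 1980 to 3791 in lettered wt. CDH1, the defining adhesion protein of epithelia, was at 0 in 20 libraries and at most 7.59. Of the 3 cycling markers, MKI67 was lower (-0.43 ± 0.13, adjusted p = 0.0267) and CCNB1 higher (0.19 ± 0.06, adjusted p = 0.0447) in neil2 in media. Their summed level was 41119 to 46976 in neil2 and 47251 to 50618 in unlettered wt in media, with no overlap, and 40497 to 43808 in neil2 and 38390 to 43940 in wt with BSO. CCNB1 was also higher in neil2 with BSO (0.18 ± 0.06, adjusted p = 0.0483). In neil123 none of the 3 was called under either treatment. The part of the epithelial and cycling markers in the ABC results was not tested. In bulk RNA, fewer cells that carry a gene and less RNA in each cannot be told apart.

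ABCB6 was higher with BSO in wt, neil1 and neil3, and few other members passed the threshold. ABCB6 is a porphyrin transporter of mitochondria and the plasma membrane. In neil3 its libraries 1A, 1B, 2A and 2B held 75.6, 54.9, 68.4 and 69.5 with BSO and 36.2, 36.0, 28.1 and 39.8 in media, with no overlap (log2 0.92 ± 0.18, limma, adjusted p = 0.000856). In neil1 they held 30.8, 24.4 and 20.04 with BSO and 13.3, 12.5 and 16.1 in media, also apart (0.79 ± 0.21, adjusted p = 0.0418). Lettered wt libraries held 70.8, 57.9, 71.5 and 50.5 with BSO and 30.6, 37.2, 34.4 and 40.4 in media. Unlettered wt libraries held 13.8, 17.8 and 20.8 with BSO and 13.4, 17.9 and 12.6 in media, and these overlapped.

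Over both wt sets the rise of ABCB6 was 0.55 ± 0.13 (limma, adjusted p = 0.00436), made of 0.79 in the lettered and 0.24 in the unlettered set. That both sets differ was not tested. In neil123 ABCB6 held 44.1, 49.1, 64.2 and 53.3 with BSO and 36.9, 42.4, 39.5 and 32.5 in media, apart in every library, but the difference missed the threshold (0.46 ± 0.18, adjusted p = 0.276). In neil2 the libraries overlapped, at 26.2, 23.7 and 20.5 with BSO and 20.3, 30.3 and 17.4 in media (0.08 ± 0.21, adjusted p = 0.983). ABCB6 was higher with BSO in 19 of 21 pairs. The call in wt held without any 1 of its 14 libraries. That in neil3 was lost without line 2 and with 1 mean per line. The call in neil1 was lost without any 1 of 5 of its 6 libraries (all but a BSO library of line 13), without line 12, and with edgeR and 5 further settings. Leaving out line 13 leaves 1 neil1 library per treatment, whose rise was 1.16.

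By comparison, the members called with BSO were 1 of 28 in wt (14.5% of all genes tested), 1 in neil1 (1.29%), 0 in neil2 (0.174%), 2 in neil3 (6.64%) and 0 in neil123 (1.7%). The call in wt was higher with BSO, as were 7.64% of all genes, against 6.87% lower, and so was that in neil1 (0.893% of all genes higher). In neil3, 1 member was higher (3.56% of all genes) and 1 lower (3.08%). In neil2 0 members were lower (0.0209% of all genes), and in neil123 0 were higher (1.4%). In neil2 and neil123, 1 and 3 members had an unadjusted p under 0.05, and edgeR called 0. The second call in neil3 was ABCE1, which splits ribosomes after termination. It held 5375, 4492, 5364 and 4331 with BSO and 6267, 5405, 6094 and 5348 in media, so that the BSO libraries at 5375 and 5364 lay between the lowest media libraries and the sets overlapped (log2 -0.24 ± 0.08, limma, adjusted p = 0.0441). The call was lost without any 1 of 4 of the 8 libraries (1A or 2A in media, 1B or 2B with BSO), without either line, with an additive term for the name form and with only the compared groups in the fit, and at a minimum mean of 1. Within the pairs that share a replicate name ABCE1 was lower with BSO each time, by log2 -0.22 in 1A, -0.27 in 1B, -0.18 in 2A and -0.30 in 2B. The fit blocked on these pairs, given below, also called it lower.

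Markers of cycling cells moved in the same libraries. MKI67 was lower with BSO in wt (log2 -0.31 ± 0.08, limma, adjusted p = 0.00983). The summed level of the 3 cycling markers was 38390 to 43940 with BSO and 47251 to 50618 in media in unlettered wt, and 45271 to 47722 with BSO and 47349 to 49203 in media in lettered wt. In neil3 it was 40082 to 49155 with BSO and 44266 to 50477 in media. Their part in the ABC results was not tested.

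Replicate names pair the libraries, and blocking on them called more members: 9 in wt (35.4% of all genes), 3 in neil1 (11%), 1 in neil2 (8.46%), 9 in neil3 (24%) and 4 in neil123 (11.7%). In wt 6 were higher with BSO (ABCB6, ABCB10, ABCC2, ABCC10 and ABCA3 among them) and 3 lower (ABCE1, ABCA1 and ABCC4). Apart from ABCB6 and ABCC2 these were changes of 0.30 or less. ABCB10 rose by 0.12 ± 0.03 (limma with the block, adjusted p = 0.00378). ABCA1 fell by 0.30 ± 0.06 (adjusted p = 0.000421), ABCE1 fell by 0.16 ± 0.03 (adjusted p = 2.67e-05) and ABCC4 fell by 0.10 ± 0.03 (adjusted p = 0.0194). ABCC2, at 12.7 to 59.0 in wt, rose by 0.50 ± 0.19 (adjusted p = 0.0439).

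In neil3 the block called members such as ABCB6, ABCB10, ABCA13 and ABCA3 higher and ABCE1, ABCF1, ABCF3 and ABCG4 lower. ABCF1 and ABCF3, which act in translation, each fell by 0.12 on the log2 scale (adjusted p = 0.0093 and 0.0379). ABCG4 also fell in neil1 (-0.66 ± 0.16, adjusted p = 0.00534) and neil123 (-0.48 ± 0.13, adjusted p = 0.0171). In neil2 the single call was ABCA7, a phospholipid transporter, which was lower (-0.26 ± 0.07, adjusted p = 0.0105). Counted over pairs with no test, ABCB10 was higher with BSO in 20 of 21 and ABCB6 in 19, whereas ABCA1 and ABCG4 were lower in 20 and ABCE1 in 19.

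ABCG2 in neil123 passed the test with BSO when the pairs were used. It was higher in all 4 pairs, at 15.02, 14.6, 12.6 and 13.07 with BSO, against 6.97, 5.18, 4.93 and 2.03 in media (log2 1.44 ± 0.42, limma, adjusted p = 0.0734; with the block 1.44 ± 0.25, adjusted p = 0.00014). The BSO change in neil123 exceeded that in lettered wt by 1.18 ± 0.59 (adjusted p = 1; with the block 1.18 ± 0.35, adjusted p = 0.299), so a difference in response between these genotypes did not pass the test.

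**Figure D5:**
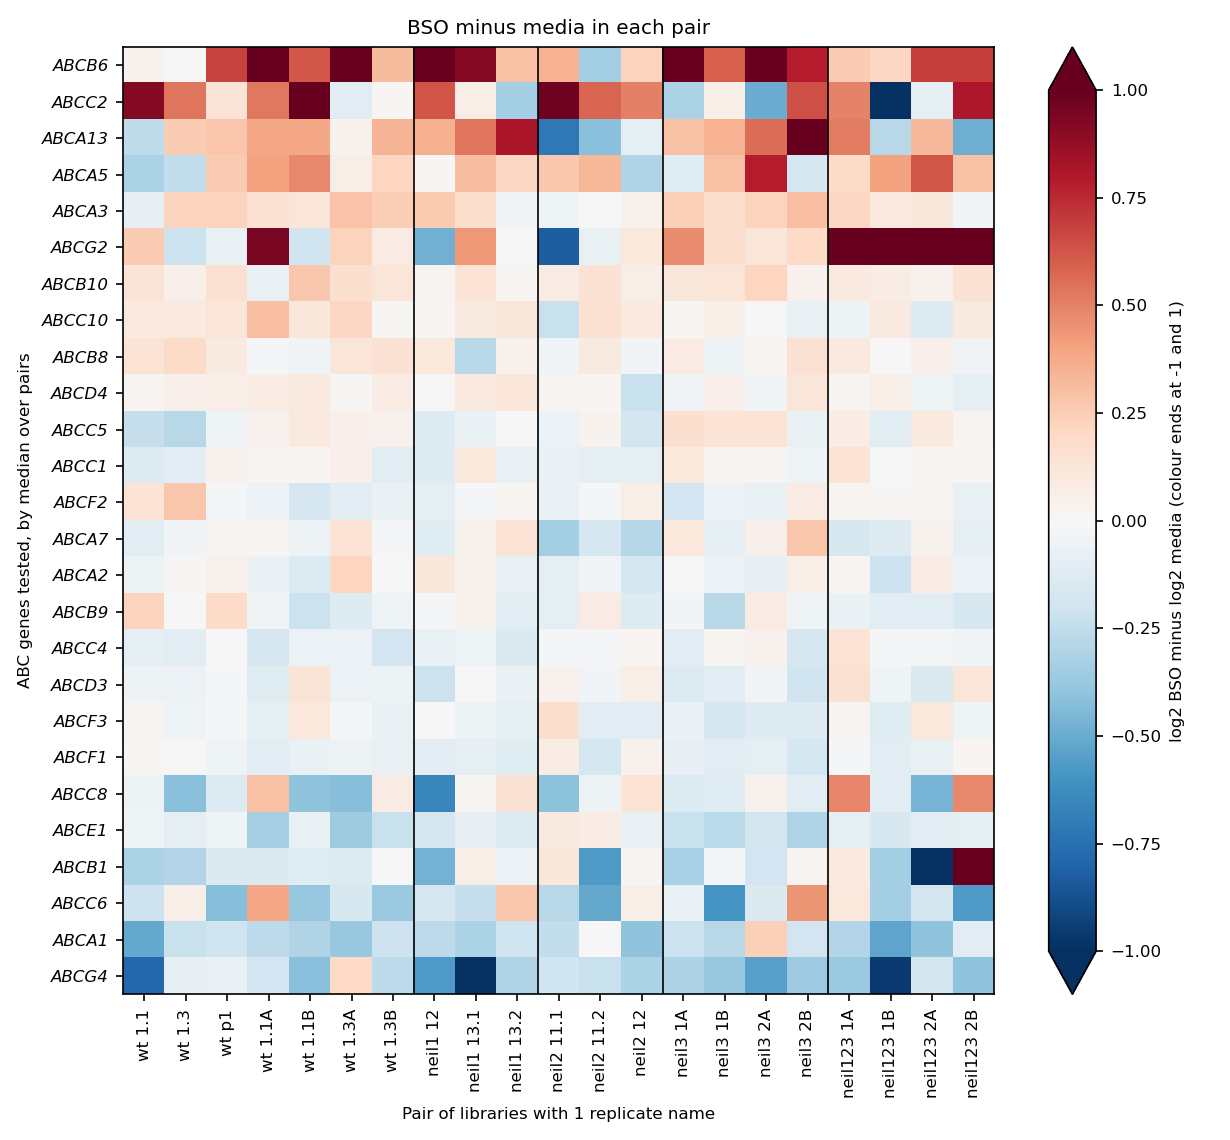
Log2 BSO minus log2 media for 26 of the 28 ABC genes tested (rows, by their median over pairs) in each of 21 pairs of libraries with 1 replicate name (columns, with lines between wt, neil1, neil2, neil3 and neil123); colours end at -1 and 1. ABCB6 stands at the top and is higher in 19 pairs, ABCA1 and ABCG4 stand at the bottom and are lower in 20, and ABCG2 is high in all 4 pairs of neil123.

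No member passed the test of a difference between a knockout and wt in its change with BSO. In these 4 comparisons 0 of 28 members passed and 0 had an unadjusted p under 0.05, with 0% of all genes called by limma and 0 members called by edgeR. With the replicate block 2.21% of all genes were called for neil1, 10.4% for neil2, 0% for neil3 and 0.0349% for neil123, and again 0 members. For ABCB6 the difference in change was 0.55 ± 0.29 in neil1, -0.16 ± 0.29 in neil2, 0.13 ± 0.25 in neil3 and -0.33 ± 0.25 in neil123.

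Partners of the ABC proteins moved with BSO as follows, and their part in the ABC results was not tested. The list counts in wt stand against 7.64% of all genes tested higher and 6.87% lower with BSO. FECH, which inserts iron into protoporphyrin to make haem, rose in all 5 genotypes, by 0.50 ± 0.05 in wt (limma, adjusted p = 1.5e-09), 0.40 in neil1, 0.36 in neil2, 0.59 in neil3 and 0.51 in neil123. ALAS1, the first enzyme of haem synthesis, rose in wt (0.30 ± 0.06, adjusted p = 0.000345) and neil3 (0.37 ± 0.07, adjusted p = 0.0014). They are members of a list of 9 tested iron-sulfur and haem genes, of which 3 were higher and 0 lower in wt. The median of that list was 0.05 in wt. Among 10 sterol genes NPC2, which binds cholesterol in lysosomes, rose by 0.39 ± 0.06 in wt (adjusted p = 5.25e-06). In that list 1 was higher and 3 lower in wt.

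GSTP1, the most used glutathione transferase of many tumour lines, rose by 0.53 ± 0.08 in wt (limma, adjusted p = 2.43e-05), 0.55 ± 0.11 in neil3 (adjusted p = 0.0012) and 0.57 ± 0.11 in neil123 (adjusted p = 0.00214). Of 12 glutathione transferase genes, 3 were higher and 0 lower with BSO in wt, at a list median of 0.12. Of 13 receptors and factors, 4 were higher and 0 lower in wt, among them NFE2L2 (0.15 ± 0.04, adjusted p = 0.00401) and its inhibitor KEAP1 (0.18 ± 0.04, adjusted p = 0.000469). Of 10 peroxisome genes 2 were higher and 2 lower in wt, and of 10 translation genes 0 were higher and 3 lower (EIF3J, NEMF and EIF2AK4). No other drug efflux gene of the 10 tested was called with BSO in any genotype.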

How the data were processed

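Total RNA was purified and sequenced as Illumina libraries, per the labels' protocols. The deposited table holds the authors' normalized read counts for each gene (a signal: read counts divided by a size factor of the library). The submitters' processing notes name Trim Galore, HISAT2, SAMtools, featureCounts and DESeq2 as tools and GRCh38 (hg38) as the build. Their versions and whether featureCounts used strand were not given in the sources used here. All 42 columns were matched to samples by title. Whole reads were recovered from the steps in each column for 100% of values (tolerance 1e-06), 1 read being worth 0.941 to 1.04. Entries without a symbol held 0.868% to 1.25% of reads and were left out of tests. Libraries of 1 group differed by more than sampling noise (chi-square per degree of freedom from 2.60 to 28.9), and none was merged.

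The main test was limma 3.58.1 (R 4.3.3) with an intensity trend, on log2(value + 1) of 14331 named genes whose mean was at least 10. It covered all 42 libraries in 12 groups, with wt split by name form, and gave 18 comparisons, each adjusted over all genes tested. The quasi-likelihood test of edgeR 4.0.16 on recovered reads was an alternative. The main fit, edgeR and the fits with an additive term, 1 mean per line and the replicate block were run on simulated counts without line or pair effects. Line as a random block, the term for the final letter and the fit of only the compared groups were not. Replicate names pair BSO with media libraries: deviations from group means correlated in each of 21 pairs (r = 0.193 to 0.849), and each BSO library came closest to its own media partner. Values with the replicate block therefore stand beside BSO results where they changed a call. neil1 and neil2 share 3 wt libraries per treatment, and neil3 and neil123 share 4, so likeness between such comparisons is no result.

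The members, the lists of partner genes and the tests were chosen with earlier results of these data known. Values are given for ABCB1, ABCC1, ABCC4, ABCC5, for members past the threshold and for up to 4 called genes per list. ABCB4 and the neighbours of ABCB1 were chosen after their values were seen. Spans and exon lengths come from GENCODE v29 (GRCh38) and promoter sequences from RefSeq (GRCh38.p14). Values of ABCC6, which has near-identical pseudogene copies, are uncertain. So are those of genes that overlap others: ABCB1 (RUNDC3B), ABCC5 (ABCC5-AS1), ABCB9 (ARL6IP4, OGFOD2), ABCA3 (ABCA17P) and ABCE1 (OTUD4). A few genes are counted but not reported by name here.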

Additional observations from a re-analysis of the deposited data

Results flagged for a closer look

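Of 114 groups of 4 libraries examined over the named members, 4 held a library far from the other 3 by Dixon's criterion, and chance alone flags about 1 in 20 groups. ABCF1 stood at 6099.55 in neil123 library 1A with BSO, above the 5452 to 5504 of the others. ABCF3 stood at 1420.75 in neil123 library 2A with BSO, above the 1325 to 1328 of the others. ABCF3 was lower in 2 libraries: 1401.07 in neil3 library 2B in media, where the others held 1460 to 1471, and 1310.25 in wt library 1.3B with BSO, where the others held 1389 to 1394.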

How the results depend on the processing

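Counts of ABC genes called did not reverse direction under any alternative, and equal totals moved the median of all genes by under 0.1. With the replicate block the counts with BSO were 9 in wt, 3 in neil1, 1 in neil2, 9 in neil3 and 4 in neil123, against 1, 1, 0, 2 and 0 without it. The shares of all genes called were 35.4%, 11%, 8.46%, 24% and 11.7% with the block, and 14.5%, 1.29%, 0.174%, 6.64% and 1.7% without it. For the other settings, and for libraries or lines left out, the share of all genes is not given here. A change in those counts cannot be told apart from a shift over all genes. An additive term for the name form gave 7 for neil123 against wt in media, and with BSO 2 in wt, 0 in neil1 and 1 in neil3. Line as a random block gave 3 in wt and 1 in neil123 with BSO. With 1 mean per line, neil2 had 2 in media and 3 with BSO against wt, neil123 had 0 and 0, and BSO gave 2 in wt, 0 in neil1 and 1 in neil3. Fitting only the compared groups gave 0 for neil2 and 8 for neil123 in media, 4 for neil123 with BSO, and with BSO against media 3 in wt, 0 in neil1 and 1 in neil3. With BSO, a pseudocount of 5 gave 0 in neil1. A mean of at least 50 left ABCB6 untested and gave 2 other members in wt, 0 in neil1 and 1 in neil3. Since ABCB6 was the only member called in wt and in neil1 in the main fit, these counts are no check of its calls. A mean of at least 1 gave 0 in neil1 and 1 in neil3. Equal totals gave 2 in wt, and edgeR 2 in wt and 0 in neil1.

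Leaving out 1 library at a time gave 0 to 6 calls for neil2 and 1 to 4 for neil123 against wt in media, and 2 to 8 for neil2 and 1 to 2 for neil123 with BSO. The count for neil2 in media dropped to 0 or 2 without either library of line 11 and to 1 without wt 1.1, and with BSO to 2 or 3 without either library of line 11 or any unlettered wt library. For neil123 it dropped to 1 without 2B and 2 without wt 1.1A in media, and with BSO to 1 without 1A, 2A, 2B, wt 1.1A, wt 1.1B or wt 1.3B. BSO against media then gave 1 to 2 in wt (2 without lettered media 1.1A, 1.1B or 1.3B, lettered BSO 1.3A, or unlettered media 1.3 or p1), 0 to 1 in neil1 and 1 to 2 in neil3. Leaving out each line was chosen after seeing the data. Without line 11, 1 neil2 library per treatment remained, too few for a count of calls. Without line 2, neil123 had 2 in media and neil3 had 0 with BSO against media. Without line 1, neil3 had 1. Without line 12, neil1 had 1 against wt with BSO and 0 for BSO against media, whereas without line 13 only 1 neil1 library per treatment remained. In each case the cause was not tested. Members at a few reads per library, such as ABCG2, are limited by depth.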
